A study of Mus musculus with 28 samples.

Results

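Gene expression was compared between resident peritoneal macrophages of mice injected with imiquimod (IMQ) and of mice injected with phosphate-buffered saline (PBS), at the point the sample titles call 3 weeks. The 8 arrays of this comparison, 4 after IMQ and 4 after PBS, were taken by their titles from the 28 arrays of the series. All 8 came from wild-type C57BL/6 mice given an intravenous injection at 7 to 8 weeks of age. Macrophages were collected 3 to 4 weeks later, at 10 to 12 weeks of age, by washing the peritoneal cavity without thioglycollate. They were kept overnight in serum-free macrophage medium, and non-adherent cells were washed off before and after that night, so both groups shared a night in culture. The same mice, ages and culture were used for arrays after peptidoglycan (PGN), lipopolysaccharide (LPS) and beta-glucan (BG), 4 each, which are used here for direct comparisons with IMQ. The series also holds 4 arrays of wild-type mice and 4 of ATF7 knockout mice, with no injection named in their labels. These enter the shared estimate of the spread, and a few of their values are given. The arrays of a group are described as biologically independent, but the number of animals behind an array is not given in the sources used here.

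Imiquimod is a small imidazoquinoline that activates the endosomal receptor TLR7, whose natural ligand is single-stranded RNA. TLR7 signals through the adaptor MyD88 to NF-kB and to the interferon regulatory factors IRF5 and IRF7. Imiquimod also activates the NLRP3 inflammasome independently of TLR7. Large peritoneal macrophages are long-lived resident cells that depend on the transcription factor GATA6, clear dying cells and recycle their iron and lipids. An interval of weeks between a microbial stimulus and the measurement asks what the stimulus left behind rather than the acute response.

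The cells carried the labelled identity. Adgre1, which encodes the macrophage antigen F4/80, had a mean log2 signal of 12.37 after IMQ and 12.38 after PBS, and Lyz2, the macrophage lysozyme, one of 13.34 after IMQ and 13.30 after PBS. Gata6 had log2 signals of 10.39, 10.50, 10.31 and 10.40 after IMQ, against 10.68, 10.30, 10.21 and 10.19 after PBS, so the groups overlapped (difference 0.05, SE 0.12, adjusted p = 0.857). Of 36 tested genes of large peritoneal macrophage identity, 3 were called higher after IMQ and 1 lower. B cell transcripts were present in every array: over 21 tested B cell genes the mean log2 signal ranged from 8.53 to 8.72 in the IMQ arrays and from 8.37 to 8.71 in the PBS arrays. In such bulk samples, fewer cells of a type and less RNA per cell cannot be told apart.

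The PBS arrays were not alike. On the first principal component of the 8 arrays, which held 39% of the variance, PBS arrays 3 and 4 lay at -12.9 and -13.0, PBS arrays 1 and 2 at -0.64 and -1.08, and the IMQ arrays between 4.32 and 10.8. Arrays of one group still correlated at 0.9897 or more. The labels give no reason for the split and no array batch, whose part in the results was not tested, so values without PBS arrays 3 and 4 are given beside the results below. A call can be lost there with a difference of unchanged size, since fewer arrays remain: of 45 named genes that lost the call, 16 had a difference smaller by over 1.5 times and 29 did not.

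Of 13512 genes tested, 769 (5.69%) were called at an adjusted p under 0.05 by limma with Benjamini-Hochberg adjustment. After IMQ, 418 genes were higher (3.09%) and 351 lower (2.6%). The changes were small: 28 genes (0.207%) were called with a change of at least 1.5-fold, and the medians of the called genes were 0.24 for those higher and -0.24 for those lower, on the log2 scale. The 4 IMQ arrays did not overlap the 4 PBS arrays for 684 of the 769 (5.06% of all genes), and over all genes, called or not, there was no overlap for 2051 (15.2%). For such a gene the exact two-sided permutation test of 4 against 4 arrays gives 0.0286, the smallest p it allows. Without PBS arrays 3 and 4, 310 genes were called, 199 higher and 111 lower, of which 234 were among the 769 with the same direction. Without PBS arrays 1 and 2, 1135 were called. Leaving out 1 array at a time gave 400 without IMQ array 1, 479 without IMQ array 2, 449 without IMQ array 3, 474 without PBS array 3 and 424 without PBS array 4, the others leaving between 562 and 758. Of the 79 called genes named below, 29 lost the call without some single array, 22 of them without any 1 of 4 to 7 different arrays. All 29 had an adjusted p of 0.00924 or more, and they are identified with the group they belong to. Centring each array on its median turned the balance of the calls: 394 higher and 614 lower.

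**Figure D1:**
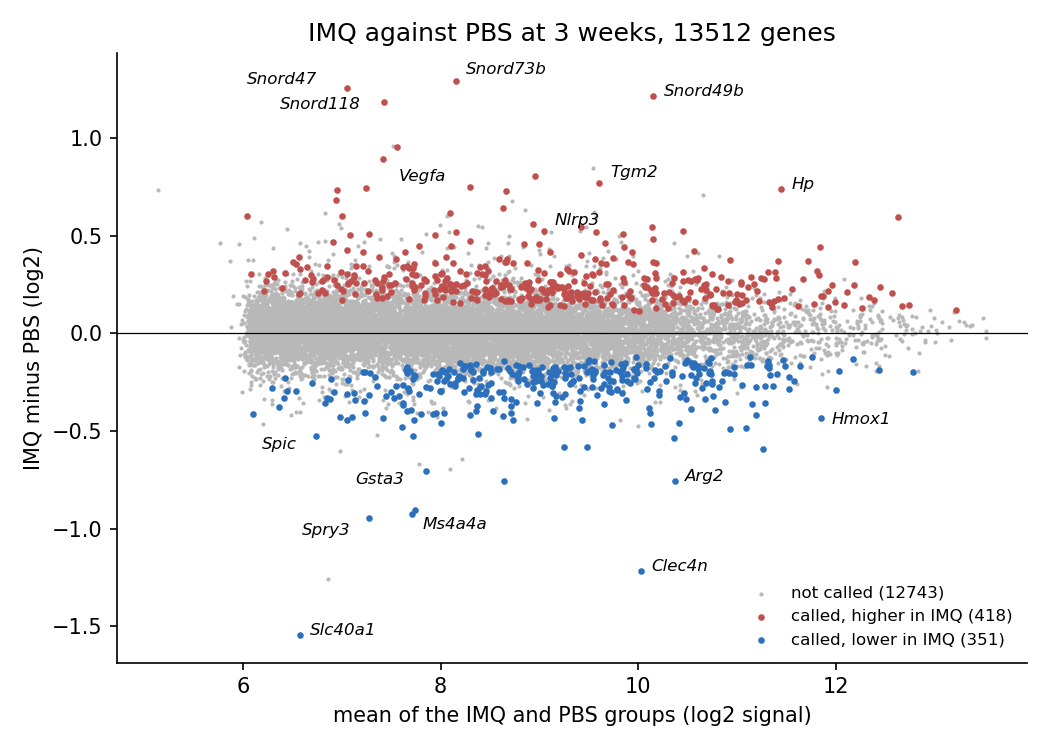
Each point is a gene, with the mean log2 signal of the IMQ and PBS groups on the horizontal axis and the IMQ minus PBS difference (log2) on the vertical axis. The 418 genes called higher are red and the 351 called lower are blue. Small nucleolar RNAs lie at the top, at up to 1.29, and Slc40a1 and Clec4n at the bottom, at -1.54 and -1.22. The IMQ arrays of Slc40a1 are at the background floor, so its point is not a measured difference.

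A gene of iron export had the lowest IMQ minus PBS value, although its IMQ arrays were at the background floor. Macrophages that take up old red cells break down haem with haem oxygenase and send the iron out through ferroportin, encoded by Slc40a1, and SPI-C is a transcription factor known for its role in iron-recycling macrophages. Slc40a1 had log2 signals of 5.59, 5.91, 5.87 and 5.83 after IMQ, against 6.24, 7.06, 7.65 and 8.43 after PBS. All 4 IMQ arrays were at or under the background floor of 6.32, as was PBS array 1, while PBS arrays 3 and 4 were the highest. The level was therefore at least 2.03-fold lower after IMQ (adjusted p = 0.00212). Spic read 6.52, 6.34, 6.57 and 6.46 after IMQ, against 6.65, 7.16, 7.00 and 7.19 after PBS, close to the floor and without overlap (difference -0.53, SE 0.11, adjusted p = 0.00472). Hmox1, encoding inducible haem oxygenase, had log2 signals of 11.68, 11.64, 11.65 and 11.58 after IMQ, against 11.75, 12.10, 12.24 and 12.19 after PBS. Its groups did not overlap either, although PBS array 1 lay just above the IMQ arrays (difference -0.43, SE 0.09, adjusted p = 0.0055). These 3 were the called genes of 19 tested in the iron and haem list (15.8%, against 5.69% of all genes). None of the 19 was called higher. The haem transporter gene Slc48a1 differed by -0.17 (adjusted p = 0.067). The list's median was -0.09, against 0.02 over all genes. Without PBS arrays 3 and 4, 0 of the 19 were called: Slc40a1 was then at least 1.25-fold lower (adjusted p = 0.108), and the difference of Spic was -0.43 (0.0979) and that of Hmox1 -0.29 (0.172). Without PBS arrays 1 and 2 instead, 6 were called lower. Leaving out PBS array 1 alone gave 5.

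NRF2 is a transcription factor activated by oxidative and electrophilic stress. Of 25 tested antioxidant genes it regulates, 5 were called lower (20%, against 2.6% of all genes). The other 20 were not called, and 7 of the 25 lay above 0. Gstm1, a glutathione S-transferase, had log2 signals of 10.72, 10.99, 10.88 and 10.82 after IMQ, against 11.23, 11.34, 11.37 and 11.41 after PBS. Every IMQ array was below every PBS array (difference -0.49, SE 0.08, adjusted p = 0.000655). Gsta3, another member of that enzyme family, read 7.29, 7.74, 7.43 and 7.54 after IMQ, against 7.95, 8.20, 8.40 and 8.26 after PBS (difference -0.70, SE 0.17, adjusted p = 0.0133). Me1, which encodes the cytosolic malic enzyme that makes NADPH, read 7.89, 7.91, 7.77 and 7.77 after IMQ, against 8.16, 8.29, 8.22 and 8.30 after PBS (difference -0.41, SE 0.09, adjusted p = 0.00811). For both genes too the groups stood fully apart. None was called higher, the other called members being Hmox1 and Sqstm1, the gene of the autophagy receptor p62 (difference -0.19, SE 0.05, adjusted p = 0.0233). The median of the 25 was -0.13. Gstm1 was the single member called without PBS arrays 3 and 4 (difference -0.43, adjusted p = 0.0219), and Gsta3 and Me1 were then at -0.58 (adjusted p = 0.167) and -0.39 (0.0772). The call of Gsta3 was lost without IMQ array 1 (adjusted p = 0.0592) or PBS array 3 (0.0522), and that of Sqstm1 without any 1 of 5 arrays (up to 0.0935). The count of 5 was 3 without IMQ array 1 or PBS array 3 and 9 without PBS array 1.

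The promoters of 2 of these genes are shown because they hold the core of the antioxidant response element, the sequence NRF2 binds, written TGACNNNGC and searched on both strands. Sequences run 5' to 3' on the gene's strand from 250 bases before to 50 bases after the RefSeq start, build GRCm38.p6, with each match in capitals.
Me1, chr9:86695865-86696164, minus strand: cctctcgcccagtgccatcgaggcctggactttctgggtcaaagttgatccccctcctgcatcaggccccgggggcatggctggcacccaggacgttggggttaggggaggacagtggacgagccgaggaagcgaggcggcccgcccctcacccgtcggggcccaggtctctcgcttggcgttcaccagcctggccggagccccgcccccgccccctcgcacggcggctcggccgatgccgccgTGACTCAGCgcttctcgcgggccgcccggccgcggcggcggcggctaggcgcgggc
Gsta3, chr1:21240335-21240634, plus strand: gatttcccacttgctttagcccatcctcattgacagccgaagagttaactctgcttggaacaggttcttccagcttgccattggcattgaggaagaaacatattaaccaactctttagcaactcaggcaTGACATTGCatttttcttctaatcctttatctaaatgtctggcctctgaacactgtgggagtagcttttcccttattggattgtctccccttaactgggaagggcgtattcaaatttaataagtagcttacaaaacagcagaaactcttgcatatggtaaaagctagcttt
Of 32851 RefSeq promoters of this length 12.4% hold the core, so a match is common. Among the tested antioxidant genes, 21 have a promoter in the RefSeq table used here and 9 of those hold it, and among the 4 called genes with a promoter there it was found in these 2 and not in Gstm1 or Sqstm1. Me1 has 2 starts in the table, and the one shown is the one with a match.

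Genes of the lysosome and of autophagy formed the third group with falls. Atp6v1a, a subunit of the proton pump that acidifies lysosomes, had log2 signals of 10.93, 11.04, 10.96 and 10.94 after IMQ, against 11.23, 11.29, 11.37 and 11.43 after PBS. Its IMQ arrays were all below its PBS arrays (difference -0.36, SE 0.05, adjusted p = 3.86e-05). Map1lc3a, which encodes an LC3 protein of the autophagosome membrane, read 8.47, 8.52, 8.63 and 8.49 after IMQ, against 8.91, 8.86, 8.97 and 8.86 after PBS, again with no overlap (difference -0.37, SE 0.06, adjusted p = 0.000771). Ctsd, the gene of the protease cathepsin D, differed by -0.20 (SE 0.04, adjusted p = 0.00494). Mcoln1, a lysosomal calcium channel gene, differed by -0.17 (SE 0.05, adjusted p = 0.0415). With Sqstm1 these were the 5 called members of 32 tested (15.6%, against 5.69% of all genes), all lower. Mcoln1 falls outside the rule for named genes and completes this count. The median of the list was -0.06. Atp6v1a and Map1lc3a also passed without PBS arrays 3 and 4, at -0.29 (adjusted p = 0.00508) and -0.36 (adjusted p = 0.0173), whereas Ctsd and Mcoln1 were then at adjusted p of 0.196 and 0.327. The call of Mcoln1 was lost without any 1 of 7 arrays (up to 0.152), and the count of 5 was 3 without IMQ array 1 or 3 or PBS array 3 or 4.

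The E-box TCACGTG, part of the motif bound by TFEB and TFE3, which control lysosomal genes, was searched on both strands of the same promoters. It was found in 3 of the 4 called lysosomal genes with a promoter in the table, shown here with the matches in capitals. Where both strands match, the matches overlap and the capitals run over 8 bases.
Ctsd, chr7:142387778-142388077, minus strand: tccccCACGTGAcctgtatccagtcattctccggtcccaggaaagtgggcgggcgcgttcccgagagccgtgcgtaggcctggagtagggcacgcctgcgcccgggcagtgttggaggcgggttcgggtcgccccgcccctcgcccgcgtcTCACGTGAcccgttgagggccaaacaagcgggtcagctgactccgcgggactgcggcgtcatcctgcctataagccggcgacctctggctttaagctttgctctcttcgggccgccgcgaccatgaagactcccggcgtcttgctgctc
Mcoln1, chr8:3500269-3500568, plus strand: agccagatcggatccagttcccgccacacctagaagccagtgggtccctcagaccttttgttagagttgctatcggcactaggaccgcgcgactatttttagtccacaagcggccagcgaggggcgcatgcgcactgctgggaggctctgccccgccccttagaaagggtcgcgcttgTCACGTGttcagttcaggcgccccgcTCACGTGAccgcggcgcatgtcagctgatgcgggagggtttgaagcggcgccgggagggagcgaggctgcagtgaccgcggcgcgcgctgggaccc
Atp6v1a, chr16:44139210-44139509, minus strand: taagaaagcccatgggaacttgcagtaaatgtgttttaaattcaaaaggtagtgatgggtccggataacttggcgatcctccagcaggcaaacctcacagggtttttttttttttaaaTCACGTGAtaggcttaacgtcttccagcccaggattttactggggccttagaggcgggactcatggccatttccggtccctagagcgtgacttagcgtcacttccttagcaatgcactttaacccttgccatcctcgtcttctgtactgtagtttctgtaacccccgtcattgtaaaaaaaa
The motif is in 3.77% of all 32851 promoters and in 9 of the 25 lysosomal list members with a promoter in the table, 6 of which were not called. Sqstm1 has a promoter there without these letters. The gene interval of Atp6v1a, chr16:44085402-44139702, runs past the 5' end of the window shown. Its match thus lies within the gene by that interval.

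**Figure D2:**
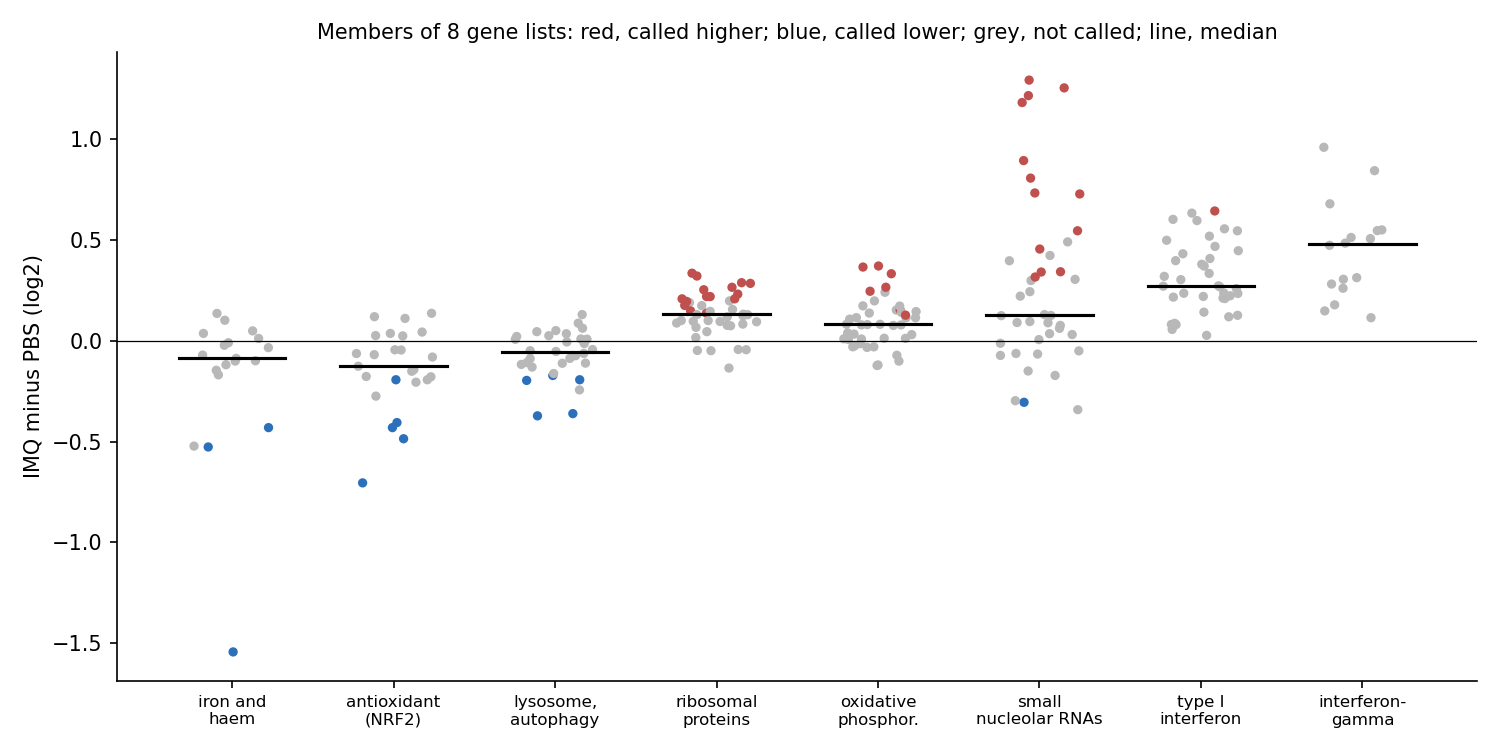
Each point is a tested gene, placed by its IMQ minus PBS difference (log2, vertical axis) in 1 of 8 lists (horizontal axis), with the list's median as a line. Called members of the iron, antioxidant and lysosome lists are all below 0, those of the ribosomal and oxidative phosphorylation lists all above 0. All members of both interferon lists lie above 0, and 1 of them, Phf11d, was called.

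Several genes of the macrophage surface and of arginine and purine metabolism were among the 12 largest falls. Clec4n encodes dectin-2, a receptor for fungal mannans. It had log2 signals of 9.27, 9.44, 9.59 and 9.37 after IMQ, against 10.19, 10.41, 10.86 and 11.08 after PBS. The lowest PBS array was above the highest IMQ array, and PBS arrays 3 and 4 were again the highest (difference -1.22, a 2.32-fold lower signal, SE 0.18, adjusted p = 0.000191; without those arrays -0.88, adjusted p = 0.0183). Ms4a4a and Ms4a7 encode membrane-spanning proteins of macrophages. Ms4a4a read 6.73, 7.36, 7.64 and 7.28 after IMQ, against 8.51, 7.91, 8.14 and 8.13 after PBS (difference -0.93, SE 0.18, adjusted p = 0.00267). Ms4a7 read 8.35, 8.15, 8.38 and 8.19 after IMQ, against 8.88, 8.78, 9.16 and 9.27 after PBS (difference -0.76, SE 0.13, adjusted p = 0.000771). Both were called without PBS arrays 3 and 4 as well, at adjusted p of 0.0244 and 0.043. Arg2, the mitochondrial arginase, had log2 signals of 9.72, 9.96, 10.08 and 10.20 after IMQ, against 10.76, 10.66, 10.80 and 10.77 after PBS. The PBS arrays were close to each other and all above the IMQ arrays (difference -0.76, SE 0.10, adjusted p = 4.9e-05), and leaving out PBS arrays 3 and 4 gave -0.72 (adjusted p = 0.00328).

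The rest of the 12 largest falls were not called without PBS arrays 3 and 4. Gpnmb, a transmembrane glycoprotein gene of lipid-laden macrophages, differed by -0.59 (adjusted p = 0.0107), Tfec, a transcription factor gene of the MiT family to which TFEB belongs, by -0.58 (adjusted p = 0.0136), and Entpd1, the ectonucleotidase CD39 that removes extracellular ATP, by -0.54 (adjusted p = 0.00349). Spry3, of the Sprouty family of growth factor signalling inhibitors, differed by -0.95 (adjusted p = 0.00298) and the palmitoyltransferase gene Zdhhc14 by -0.58 (adjusted p = 0.00751). None of these 5 was called without those arrays, with adjusted p from 0.1082 for Zdhhc14 to 0.2562 for Tfec. Their differences were then -0.42 for Gpnmb, -0.38 for Tfec, -0.39 for Entpd1, -0.50 for Spry3 and -0.50 for Zdhhc14, so those of Spry3 and Tfec shrank by over 1.5 times and the other 3 by less. Tfec also lost its call without IMQ array 1 (adjusted p = 0.0563) or PBS array 4 (0.0749). Etv3, a transcriptional repressor of the ETS family, is not among these 12. It was lower in the IMQ arrays, at 9.19, 9.15, 9.24 and 9.26, against 9.52, 9.61, 9.74 and 9.74 in the PBS arrays. It had a narrow spread (difference -0.44, SE 0.05, adjusted p = 1.61e-05) and was called without PBS arrays 3 and 4 (-0.36, adjusted p = 0.00295).

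**Figure D3:**
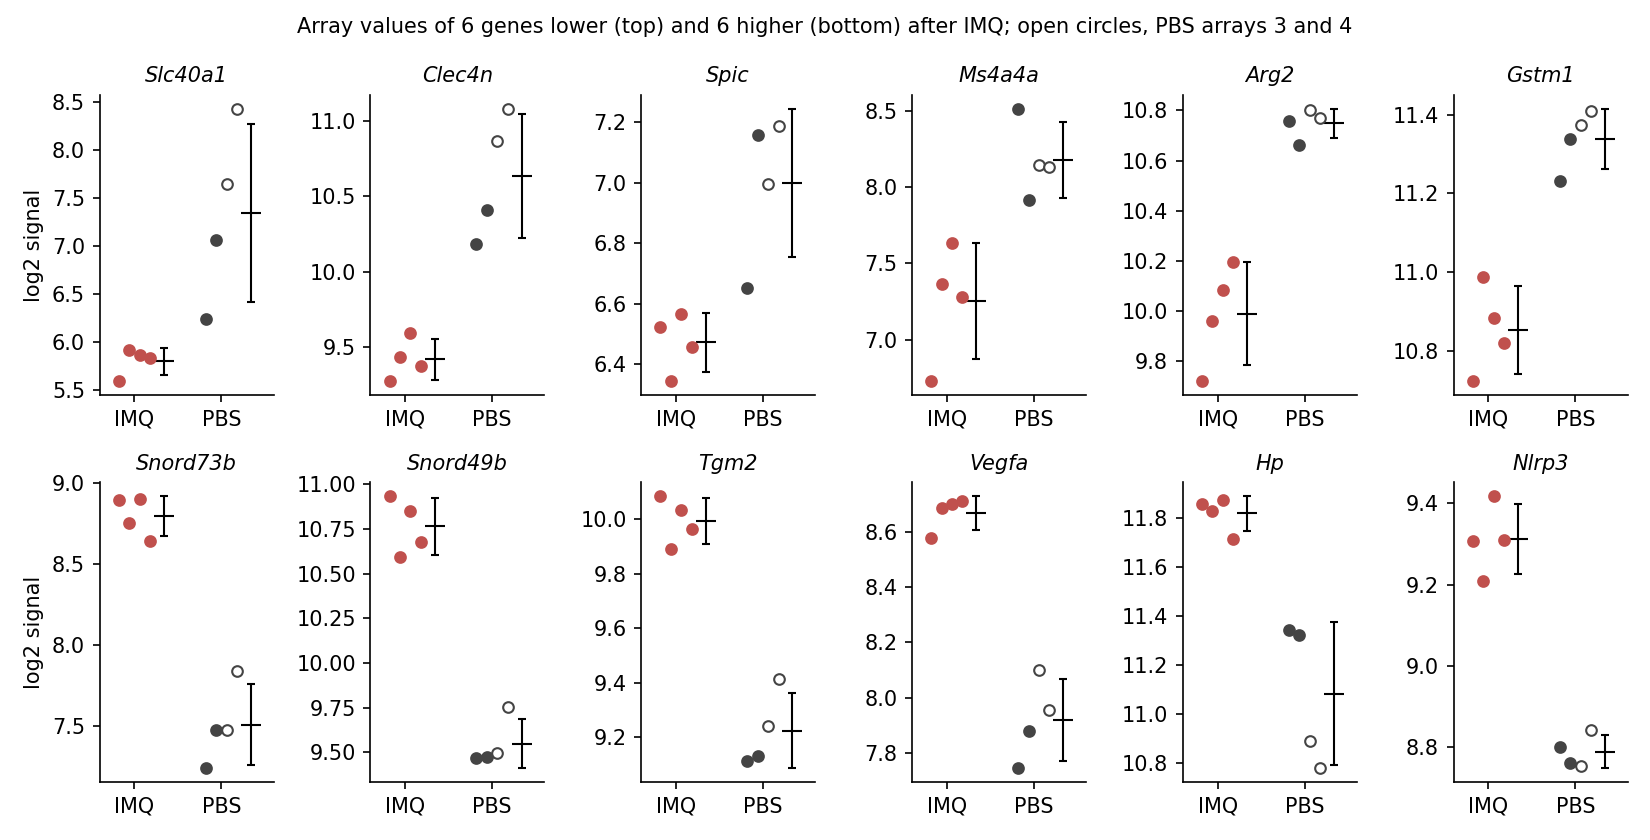
Log2 signals (vertical axes, each with its own range) of 12 genes in the 4 IMQ arrays (left) and the 4 PBS arrays (right), with the mean and SD beside them. Open circles are PBS arrays 3 and 4, which are the highest for Slc40a1 and Clec4n and the lowest for Hp. In no panel do the groups overlap.

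Small nucleolar RNAs held the largest rises. These short nuclear RNAs guide chemical modification and cleavage of ribosomal RNA, and most are cut from introns of other genes. Snord73b had log2 signals of 8.90, 8.76, 8.90 and 8.64 after IMQ, against 7.24, 7.48, 7.47 and 7.84 after PBS. All IMQ arrays were above all PBS arrays (difference 1.29, a 2.45-fold higher signal, SE 0.19, adjusted p = 0.000127). Snord49b read 10.94, 10.59, 10.85 and 10.68 after IMQ, against 9.47, 9.47, 9.50 and 9.75 after PBS (difference 1.22, SE 0.13, adjusted p = 3.34e-06). Snord47 read 8.27, 7.39, 7.85 and 7.22 after IMQ, against 6.33, 6.60, 6.30 and 6.48 after PBS (difference 1.25, SE 0.25, adjusted p = 0.00268). Snord118, the U8 RNA that takes part in processing of the large subunit's rRNA, read 8.22, 7.68, 8.13 and 8.03 after IMQ, against 6.08, 6.60, 6.99 and 7.68 after PBS. PBS array 4 came up to the lowest IMQ array for this gene (difference 1.18, SE 0.23, adjusted p = 0.00274), and without PBS arrays 1 and 2 the difference was 0.69 (adjusted p = 0.0674). Snord33 (0.89), Snora16a (0.81), Snord15a (0.73) and Snord35a (0.73) were also among the 12 largest rises, with adjusted p from 1.64e-05 for Snord15a to 0.00192 for Snord35a. None of these 4 had overlapping groups.

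Of 41 small nucleolar RNAs tested, 13 were called higher and 1, Snora30, lower (34.1% in all, against 5.69% of all genes). Snora30 differed by -0.31 (adjusted p = 0.00351) and lies outside the rule for named genes. The median of the 41 was 0.13, and 31 were above 0, against 7588 of all 13512 genes. Leaving out PBS arrays 3 and 4 kept the count at 13 higher and 1 lower, and leaving out PBS arrays 1 and 2 gave 9 and 3. Of 7 tested genes within whose RefSeq interval a called small nucleolar RNA lies, 1 was called. Rps3, around Snord15a, differed by -0.04 (adjusted p = 0.698), Gas5, around Snord47, by 0.07 (adjusted p = 0.558), and Rpl27a, around Snora3, by 0.10 (adjusted p = 0.33). The called one, Rps3a1, around Snord73b, was higher by 0.45 (adjusted p = 0.0014). The probe sets do not tell a mature small RNA from the intron that holds it, and Snord33 and Snord35a share the host Rpl13a, which was not tested.

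Some ribosomal protein genes and subunits of the respiratory chain were higher by smaller amounts. Among 42 tested ribosomal protein genes 15 were called higher (35.7%, against 3.09% of all genes) and 0 lower. Of the 42, 27 were not called, 5 lay below 0, and the median was 0.13. Rps18 had log2 signals of 11.97, 11.97, 11.93 and 12.02 after IMQ, against 11.75, 11.76, 11.54 and 11.56 after PBS, with no overlap (difference 0.32, SE 0.06, adjusted p = 0.000882). Rps12, at 0.34 (adjusted p = 0.00202), Rpl5, at 0.28 (0.000731), and Rpl26, at 0.27 (0.00592), had groups that did not overlap either. Without PBS arrays 3 and 4, 1 of the 15, Rpl5, was called (0.21, adjusted p = 0.0371). The count was 9 or 10 without any 1 IMQ array, 9 without PBS array 3 or PBS array 4, and 15 without PBS array 1 or 2. Many ribosomal protein genes have processed pseudogene copies, so their signals may include those of near-identical transcripts.

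The oxidative phosphorylation genes depended less on those arrays: 7 of 42 were called higher (16.7%, against 3.09% of all genes). Without PBS arrays 3 and 4, 6 were called. None of the 42 was called lower, with 35 not called and 9 below 0. Uqcrb, a subunit of complex III, had log2 signals of 11.61, 11.62, 11.64 and 11.55 after IMQ, against 11.16, 11.36, 11.19 and 11.22 after PBS. Ndufb9, a subunit of complex I, read 10.33, 10.36, 10.36 and 10.28 after IMQ, against 9.93, 9.99, 10.02 and 9.92 after PBS. Both were higher in every IMQ array than in any PBS array, by 0.37 (SE 0.06, adjusted p = 0.000191) and 0.37 (SE 0.06, adjusted p = 0.000235). Ndufv2 of complex I (0.27, adjusted p = 0.00374) and Cox6c of complex IV (0.25, adjusted p = 0.000531) rose as well. Glycolysis had 0 called of 20 tested genes, with a median of -0.04. For so few genes this is close to the 5.69% called over all genes. Without PBS arrays 1 and 2, 2 of the 20 were called higher and 4 lower.

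Protein-coding genes with the largest rises included an enzyme of alternatively activated macrophages and a growth factor. Tgm2, transglutaminase 2, had log2 signals of 10.09, 9.89, 10.03 and 9.96 after IMQ, against 9.11, 9.13, 9.24 and 9.41 after PBS. Vegfa, vascular endothelial growth factor A, read 8.58, 8.69, 8.70 and 8.71 after IMQ, against 7.74, 7.88, 8.10 and 7.95 after PBS. For both, every IMQ array was above every PBS array: Tgm2 by 0.77 (SE 0.09, adjusted p = 5.31e-06) and Vegfa by 0.75 (SE 0.09, adjusted p = 5.31e-06). Hp, the gene of haptoglobin, which binds free haemoglobin, read 11.86, 11.83, 11.88 and 11.72 after IMQ, against 11.34, 11.32, 10.89 and 10.78 after PBS. It was lowest in PBS arrays 3 and 4 (difference 0.74, SE 0.09, adjusted p = 2.56e-05), and was called without them at 0.49 (adjusted p = 0.00215). Cd55, a cell surface inhibitor of complement, read 7.25, 7.16, 7.39 and 7.35 after IMQ, against 6.46, 6.76, 6.49 and 6.69 after PBS (difference 0.68, SE 0.17, adjusted p = 0.0133; 0.67 without PBS arrays 3 and 4, adjusted p = 0.0926). Irf4, a transcription factor of alternative activation and of monocyte-derived cells, differed by 0.50 (adjusted p = 0.00316; 0.37 without them, adjusted p = 0.107). With Tgm2 it made up the called members among 17 tested alternative activation genes (11.8%, against 5.69% of all genes).

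Anp32a and Aldh2, with Snord49b, had the lowest adjusted p of the comparison and were singled out after their values were seen. Anp32a, a nuclear phosphoprotein gene, read 9.92, 9.85, 9.90 and 9.92 after IMQ, against 9.38, 9.49, 9.49 and 9.39 after PBS (difference 0.46, SE 0.05, adjusted p = 3.34e-06). Aldh2, the mitochondrial aldehyde dehydrogenase that clears lipid aldehydes, read 10.92, 11.06, 11.07 and 10.89 after IMQ, against 11.38, 11.38, 11.42 and 11.42 after PBS (difference -0.42, SE 0.05, adjusted p = 3.34e-06). In both genes the groups stood well apart and PBS arrays 3 and 4 lay with the other PBS arrays.

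Nlrp3, the gene of imiquimod's inflammasome target, was higher after IMQ, and also after PGN. Nlrp3 encodes the sensor that assembles with the adaptor ASC, the product of Pycard, to activate caspase-1 and mature interleukin-1 beta. Its log2 signals were 9.31, 9.21, 9.42 and 9.31 after IMQ, against 8.80, 8.76, 8.75 and 8.84 after PBS. The PBS arrays lay within a narrow range, all below the IMQ arrays (difference 0.52, a 1.44-fold higher signal, SE 0.06, adjusted p = 3.57e-06; without PBS arrays 3 and 4 0.53, adjusted p = 0.000126). Pycard read 9.81, 9.83, 9.93 and 9.71 after IMQ, against 9.59, 9.63, 9.53 and 9.52 after PBS (difference 0.25, SE 0.05, adjusted p = 0.00264; 0.21 without them, adjusted p = 0.068). Casp1 did not pass the test (0.22, adjusted p = 0.163), and its IMQ arrays, 8.84, 8.80, 8.92 and 8.78, were all above its PBS arrays, 8.57, 8.73, 8.54 and 8.62. Il1b read 7.80, 6.95, 7.85 and 7.64 after IMQ, against 8.07, 7.59, 7.96 and 7.92 after PBS, with overlap (difference -0.33, adjusted p = 0.261). Of 8 tested genes of imiquimod's targets outside TLR7, Nlrp3 and Pycard were the 2 called, against 5.69% of all genes. With so few genes 2 calls say little about the list, and whether its share exceeds that of all genes was not tested. The adenosine receptor genes of that list were not tested. The rises of Nlrp3 and Pycard were shared with PGN, and the part of an array batch in this was not tested. After PGN, Nlrp3 differed from PBS by 0.47 (adjusted p = 4.24e-05) and Pycard by 0.27 (adjusted p = 0.002155). Their IMQ minus PGN differences were 0.06 (adjusted p = 0.9802) and -0.01 (0.9955). Nlrp3 differed from PBS by -0.03 after LPS (adjusted p = 0.7311) and -0.33 after BG (5.931e-05). Pycard differed by 0.08 after LPS (adjusted p = 0.2359) and -0.03 after BG (0.6464).

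Over the 5 lists of TLR7 and the chain below it, 2 of 58 tested genes were called (3.45%, against 5.69% of all genes). Tlr7 had log2 signals of 11.06, 11.21, 11.18 and 11.13 after IMQ, against 11.07, 11.07, 11.12 and 11.13 after PBS, and the groups overlapped (difference 0.05, 95% interval -0.07 to 0.16, adjusted p = 0.686). Of 5 endosomal receptor genes 0 were called, including Tlr8 (0.07, adjusted p = 0.631) and Tlr9, the DNA receptor (0.21, adjusted p = 0.383). None of 12 trafficking and processing genes was called. Among them is Unc93b1, the chaperone that carries TLR7 to endosomes, at 11.74, 11.75, 11.81 and 11.75 after IMQ, against 11.82, 11.79, 11.71 and 11.71 after PBS (0.01, adjusted p = 0.938, a sign that turned under some settings). Of 12 adaptors and kinases, Ikbke, a kinase that activates interferon regulatory factors, was called higher (0.38, adjusted p = 0.0292; 0.16 without PBS arrays 3 and 4, adjusted p = 0.506, and an adjusted p up to 0.138 without any 1 of 5 single arrays), and Tirap lower. Tirap encodes an adaptor that brings MyD88 to surface receptors and read 9.20, 9.16, 9.27 and 9.25 after IMQ, against 9.51, 9.40, 9.48 and 9.46 after PBS. Its groups did not overlap, and the call did not depend on PBS arrays 3 and 4 (difference -0.24, SE 0.05, adjusted p = 0.00301; 0.041 without them). Myd88 differed by 0.06 (adjusted p = 0.562). None of 9 transcription factors was called, with Irf5 at 0.14 (adjusted p = 0.0733) and Irf7 at 0.47 (adjusted p = 0.149), and 0 of 20 negative regulators were. At an unadjusted p under 0.05, 2826 of all genes would pass.

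Among 25 tested surface and cytosolic pattern receptors, 4 were called higher and 2 lower (24.0% in all, against 5.69% of all genes). Besides Nlrp3, the higher ones were Nod1, which senses peptidoglycan fragments (0.36, adjusted p = 0.00987), Cd180, a TLR4-related receptor gene (0.17, adjusted p = 0.0306), and Aim2, a DNA sensor (0.21, adjusted p = 0.0402). The lower ones were Clec4n and its neighbour among C-type lectins, Clec4d (-0.13, adjusted p = 0.0373). Aim2 and Clec4d complete these counts outside the rule for named genes. Without PBS arrays 3 and 4, Nlrp3 and Clec4n were the called members, while the differences were 0.19 for Nod1 (adjusted p = 0.282), 0.19 for Cd180 (0.0976), 0.10 for Aim2 (0.538) and -0.13 for Clec4d (0.168). The calls of Cd180, Aim2 and Clec4d were lost without any 1 of 5 or 6 single arrays, and that of Nod1 without PBS array 3 (adjusted p = 0.0566).

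Interferon-stimulated genes leaned upwards with a wide spread. All 38 tested genes of the type I interferon response had a difference above 0, with a median of 0.27, against 0.02 over all genes. But 1 of the 38 was called (2.63%, against 5.69% of all genes). That one is Phf11d, at 9.34, 8.77, 8.92 and 8.77 after IMQ, against 8.20, 8.60, 8.14 and 8.29 after PBS (0.64, adjusted p = 0.0397; 0.55 without PBS arrays 3 and 4, adjusted p = 0.244, and up to 0.161 without any 1 of 6 single arrays). Ifit1, an inhibitor of foreign RNA translation, read 9.83, 8.74, 9.29 and 8.82 after IMQ, against 8.68, 9.19, 7.88 and 8.40 after PBS. IMQ array 1 was the highest and PBS array 3 the lowest, and the groups overlapped (0.63, adjusted p = 0.186). The mean of the 38 genes ranged from 9.0 to 9.57 in the IMQ arrays and from 8.66 to 9.07 in the PBS arrays. Of 16 interferon-gamma induced GTPases and chemokines, 0 were called and all 16 were above 0, with a median of 0.48. Cxcl10, a chemokine for T cells, read 10.84, 9.30, 10.05 and 9.66 after IMQ, against 9.55, 9.92, 8.29 and 8.70 after PBS (0.84, adjusted p = 0.155), and without PBS arrays 3 and 4 its difference was 0.22. The GTPase gene Iigp1 stood at 0.96 (adjusted p = 0.0744) and the Fc receptor gene Fcgr1 at 0.55 (adjusted p = 0.0589). Without PBS arrays 1 and 2 instead, 6 of the 38 and 5 of the 16 were called higher, with Cxcl10 at 1.46 (adjusted p = 0.0166) and Iigp1 at 1.37 (0.0213). The upward lean was shared by the other ligands against the same PBS arrays. The median of the 38 was 0.27 after PGN, 0.58 after LPS and 0.43 after BG. That of the 16 was 0.28 after PGN, 0.77 after LPS and 0.42 after BG.

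Antigen presentation and cytokine genes gave single calls. Their shares were 7.14% for MHC class I, 8.33% for MHC class II and 3.45% for NF-kB genes, against 5.69% of all genes. Psmb10, an immunoproteasome subunit, was the called gene of 14 in MHC class I presentation (0.36, adjusted p = 0.0345; 0.33 without PBS arrays 3 and 4, adjusted p = 0.199), and Cd40, a costimulatory receptor, that of 12 in MHC class II presentation. Cd40 had log2 signals of 10.13, 9.99, 10.15 and 10.03 after IMQ, against 9.81, 9.79, 9.46 and 9.47 after PBS, with no overlap (0.44, adjusted p = 0.00933; 0.27 without PBS arrays 3 and 4, adjusted p = 0.249). Of 29 NF-kB cytokines and chemokines, Cxcl13, a B cell chemokine made by peritoneal macrophages, was the one called (0.60, adjusted p = 0.0459; 0.22 without those arrays, adjusted p = 0.627). That count of 1 ran from 0 to 5 with 1 array left out, and was 6 without PBS arrays 1 and 2. The calls of Psmb10 and Cxcl13 were each lost without any 1 of 6 single arrays. Tnf read 10.12, 9.57, 9.93 and 9.83 after IMQ, against 9.84, 9.97, 9.56 and 9.61 after PBS (0.12, adjusted p = 0.64). Ccl2, a monocyte chemokine, read 9.69, 10.25, 10.03 and 9.49 after IMQ, against 8.68, 9.44, 9.25 and 9.60 after PBS (0.62, adjusted p = 0.0629). For both the groups overlapped.

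**Figure D4:**
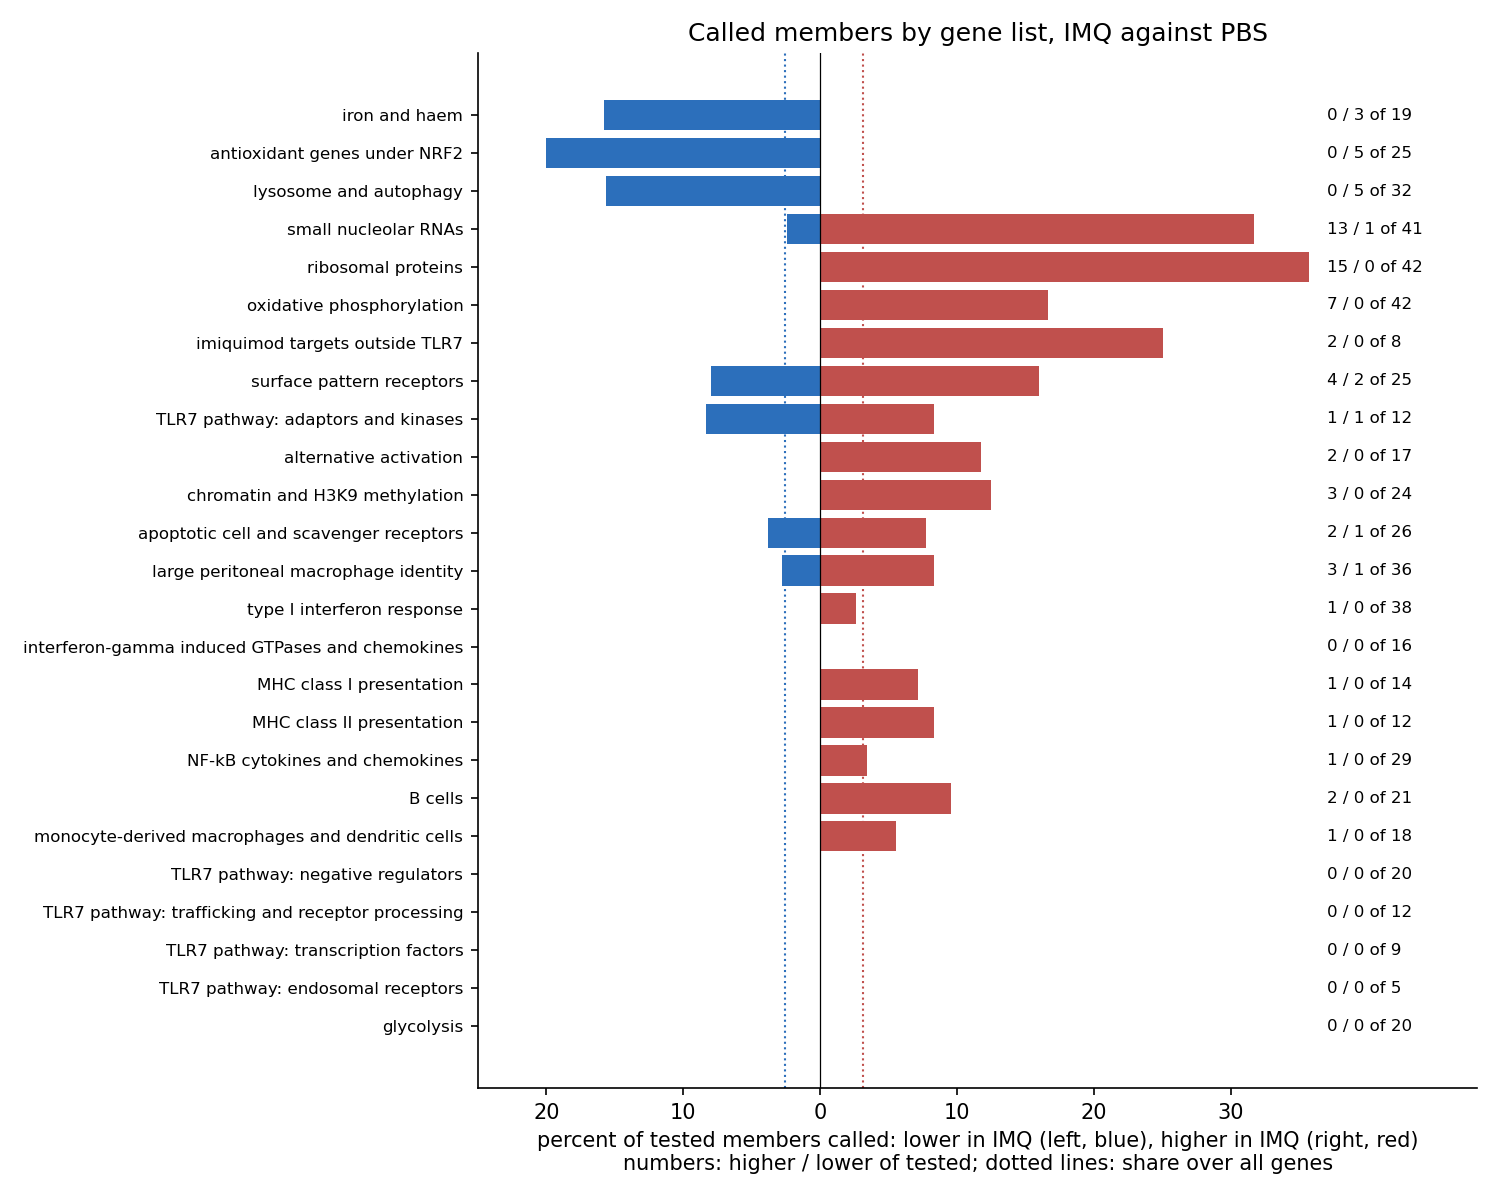
Bars give the percentage of tested members called lower after IMQ (blue, left) and higher after IMQ (red, right) in 25 of the gene lists. The numbers give members called higher, called lower and tested, and dotted lines mark the shares over all genes, 3.09% higher and 2.6% lower.

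Of the markers of identity and of other cells, 4 of 36 identity genes (11.1%) and 2 of 21 B cell genes (9.52%) were called, against 5.69% of all genes. Csf1r, the receptor for the macrophage growth factor M-CSF, was called higher by 0.14 (adjusted p = 0.00776), and Rarb, a retinoic acid receptor gene, by 0.27 (adjusted p = 0.0355), the third called identity gene being Cxcl13. Vcan, the matrix proteoglycan versican, read 6.95, 7.81, 7.31 and 7.08 after IMQ, against 8.90, 8.00, 7.76 and 8.11 after PBS. It was called lower with overlapping groups and a high PBS array 1 (-0.91, SE 0.27, adjusted p = 0.043). None of these 4 was called without PBS arrays 3 and 4, although the difference of Vcan was then wider, at -1.17 (adjusted p = 0.0538). Those of Csf1r and Rarb were 0.10 (0.174) and 0.21 (0.259), and that of Cxcl13 is given above. Rarb and Vcan were also lost without any 1 of 6 and 5 single arrays. The 2 called B cell genes, both higher, were Cd22 (0.47, adjusted p = 0.0239) and Bank1 (0.46, adjusted p = 0.0464), with 16 of the 21 above 0 and a median of 0.19. Neither was called without PBS arrays 3 and 4, at 0.30 (adjusted p = 0.346) and 0.36 (0.326), and both were lost without several of the single arrays, 4 for Cd22 and 7 for Bank1. With the B cell marker mean of each array as a covariate, 505 genes were called. Of 24 T and natural killer cell markers 12 were at background, and 0 of the 8 tested were called. The same held for 0 of 4 mast cell, 0 of 7 eosinophil and neutrophil, 0 of 13 mesothelial and fibroblast and 0 of 6 red cell and platelet genes. Irf4 was the called gene of 18 of monocyte-derived macrophages and dendritic cells (5.56%, against 5.69% of all genes).

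In the remaining lists between 1 and 3 genes were called. Those with 1 or 2 calls had shares of 8.7% (immediate early genes), 1.96% (cell cycle), 5.56% (cholesterol synthesis) and 4.35% (lipid handling). Among 26 receptors and bridging proteins for dying cells 3 were called (11.5%, against 5.69% of all genes). Axl, a receptor tyrosine kinase (0.48, adjusted p = 0.0198), and its ligand gene Pros1 (0.24, adjusted p = 0.0202) were higher. Mfge8, a bridging protein for phosphatidylserine, was lower (-0.30, adjusted p = 0.0077), and Gas6, the other ligand of Axl, stood at -0.41 (adjusted p = 0.0852). Zfp36, whose product tristetraprolin destabilises cytokine mRNA, was the called lower gene of 23 immediate early genes. It read 9.75, 9.71, 9.71 and 9.67 after IMQ, against 10.13, 10.00, 10.11 and 9.95 after PBS, fully apart (-0.34, SE 0.07, adjusted p = 0.00399; 0.0275 without PBS arrays 3 and 4). Maff, a small Maf transcription factor gene, was the called higher one (0.30, adjusted p = 0.00924). Of 30 ATF4 targets and unfolded protein response genes 3 were called (10.0%): Nupr1 (0.42, adjusted p = 0.0256) and Atf4 (0.17, adjusted p = 0.0345) were higher and Sars, the seryl-tRNA synthetase, lower (-0.17, adjusted p = 0.0332). E2f1 was the called gene of 51 in the cell cycle list (0.23, adjusted p = 0.00503; 0.0199 without those arrays). Cbx3 (0.24, adjusted p = 0.0152), Setdb2 (0.35, adjusted p = 0.0342) and Tet3 (0.21, adjusted p = 0.0485) were those of 24 in the chromatin list (12.5%). None of the 3 was called without PBS arrays 3 and 4, at 0.25 for Cbx3 (adjusted p = 0.0757), 0.21 for Setdb2 (0.395) and 0.12 for Tet3 (0.495). Pmvk (0.25, adjusted p = 0.0202) was that of 18 in cholesterol synthesis, a count that ran from 0 to 4 with 1 array left out and was 8 without PBS arrays 1 and 2, and Ppargc1b (0.32, adjusted p = 0.0176) that of 23 in lipid handling. Without PBS arrays 3 and 4, differences within 1.5 times of those above missed the threshold for Axl (0.48, adjusted p = 0.113), Mfge8 (-0.28, 0.0808), Maff (0.30, 0.0538), Sars (-0.17, 0.145), Atf4 (0.14, 0.259) and Pmvk (0.28, 0.0571). Those of Nupr1 (0.14, adjusted p = 0.579) and Ppargc1b (0.13, 0.48) were smaller by over 1.5 times. Many of these calls were lost without a single array: that of Maff without IMQ array 1 (adjusted p = 0.0604), that of Cbx3 without IMQ array 3 or PBS array 1 (up to 0.0609), those of Axl and Ppargc1b without any 1 of 3 arrays (IMQ array 1 and PBS array 4 for both), and those of Pros1, Nupr1, Pmvk, Atf4, Sars, Setdb2 and Tet3 without any 1 of 4 to 7. Atf7, the factor named in the title of the series, read 10.78, 10.86, 10.83 and 10.82 after IMQ, against 10.84, 10.76, 10.65 and 10.59 after PBS, with overlap (0.11, adjusted p = 0.171).

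Of 117 microRNA genes tested, 4 were called higher and 3 lower (5.98%, against 5.69% of all genes). The 5p strands of 3 of the 7 are shown, chosen after their values were seen because 2 of them lie together on chromosome 16, with the seed (bases 2 to 8) in capitals, from RefSeq, build GRCm38.p6.
miR-99a-5p, chr16:77598940-77598961, plus strand: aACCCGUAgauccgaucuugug
let-7c-5p, chr16:77599672-77599693, plus strand: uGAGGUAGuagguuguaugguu
miR-16-5p, chr14:61631936-61631957, minus strand: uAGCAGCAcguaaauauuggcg
The 3 seeds differ. Mir99a had log2 signals of 7.23, 7.40, 7.51 and 7.06 after IMQ, against 6.93, 6.75, 6.67 and 6.44 after PBS, with no overlap (0.60, SE 0.11, adjusted p = 0.00108; 0.0477 without PBS arrays 3 and 4). Mirlet7c-1 read 6.14, 6.50, 6.68 and 6.02 after IMQ, against 6.10, 5.94, 5.29 and 5.62 after PBS, with overlap. All its PBS arrays were at the floor, so it was at least 1.01-fold higher after IMQ (adjusted p = 0.0475; 0.504 without PBS arrays 3 and 4). Mir16-1 read 6.89, 7.15, 6.99 and 7.10 after IMQ, against 7.79, 7.51, 7.23 and 7.24 after PBS (-0.41, adjusted p = 0.0292). The calls of Mirlet7c-1 and Mir16-1 were lost without any 1 of 5 and 4 single arrays. Probe sets for these genes see precursor and primary transcripts as well as the mature strand.

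Direct comparisons showed how far these values set IMQ apart from the other ligands. Against PGN, a bacterial cell wall preparation, limma called 0 of 13512 genes (0%), with 669 at an unadjusted p under 0.05 and a lowest adjusted p of 0.724. The median size of the IMQ minus PGN difference was 0.05 (log2), against 0.11 for LPS and 0.13 for BG. The 95% interval of the difference lay within 1.5-fold for 99.2% of genes against PGN, 97.1% against LPS and 93.1% against BG. That margin therefore does little to tell the ligands apart. With array weights, 113 genes were called. Of the 5 probe sets without a gene with the lowest adjusted p against PBS, 4 had all IMQ and PGN arrays below all others. They are described in the closing section, and the part of an array batch in what IMQ and PGN share was not tested. Against LPS 2590 genes were called (19.2%), 1719 higher after IMQ (12.7%) and 871 lower (6.45%), and against BG 4963 (36.7%), 2883 higher (21.3%) and 2080 lower (15.4%). Of the 769 genes called against PBS, 406 (52.8%) also differed from LPS and 401 (52.1%) from BG. The higher and lower split against LPS turned to 927 and 1969 when arrays were centred on their median, and to 2599 and 2555 against BG.

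The comparisons with PBS share the PBS arrays, so the ligands' differences are given side by side. The median difference of the 418 genes higher after IMQ was 0.24 after IMQ, 0.19 after PGN, 0.03 after LPS and 0.14 after BG. For the 351 lower genes it was -0.24 after IMQ, -0.19 after PGN, -0.11 after LPS and -0.18 after BG.

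Small nucleolar RNAs led the differences from LPS. Snord73b averaged 8.80 after IMQ and 7.14 after LPS, with 8.51 after PGN, 7.96 after BG and 7.51 after PBS. Its IMQ minus LPS difference was 1.66 (adjusted p = 3.71e-06), and those of Snord47, Snord118 and Snord49b were 1.66, 1.49 and 1.28. The rise of this class was not largest after IMQ. Over the 41 tested, the median difference from PBS was 0.13 after IMQ, 0.17 after PGN, -0.09 after LPS and 0.27 after BG. Snord49b, for one, averaged 10.76 after IMQ and 10.98 after BG. In the arrays of wild-type mice with no injection named in their labels the mean of Snord73b was 6.65, and PBS itself differed from those arrays in 4415 genes (32.7%). Slc40a1 averaged 5.80 after IMQ, 6.26 after PGN, 6.65 after LPS, 6.86 after BG and 7.34 after PBS, and, with its IMQ arrays at the floor, was at least 1.25-fold lower after IMQ than after LPS (adjusted p = 0.045). Tgm2 averaged 9.99 after IMQ and 9.89 after PGN, against 9.29 after LPS and 9.20 after BG. Vegfa averaged 8.67 after IMQ, 8.74 after PGN, 7.81 after LPS and 8.09 after BG. Both genes were thus high after IMQ and after PGN and near the PBS means of 9.22 and 7.92 after LPS.

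The differences from BG described next are among the widest of genes that were also called against PBS. Cd55 averaged 7.29 after IMQ and 6.06 after BG (difference 1.22, adjusted p = 2.35e-06), with 6.60 after PBS. Snora16a was higher after IMQ than after BG by 1.01, and Bank1 by 0.99. Gsta3 averaged 7.50 after IMQ and 8.39 after BG (difference -0.89, adjusted p = 0.000185), with 8.21 after PBS. Tfec and Etv3 were lower after IMQ than after BG as well, by differences of -0.77 and -0.73, and Slc40a1 was at least 1.45-fold lower (adjusted p = 0.00642). Arg2 went the other way, with a mean of 9.99 after IMQ, 9.39 after BG and 10.75 after PBS.

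**Figure D5:**
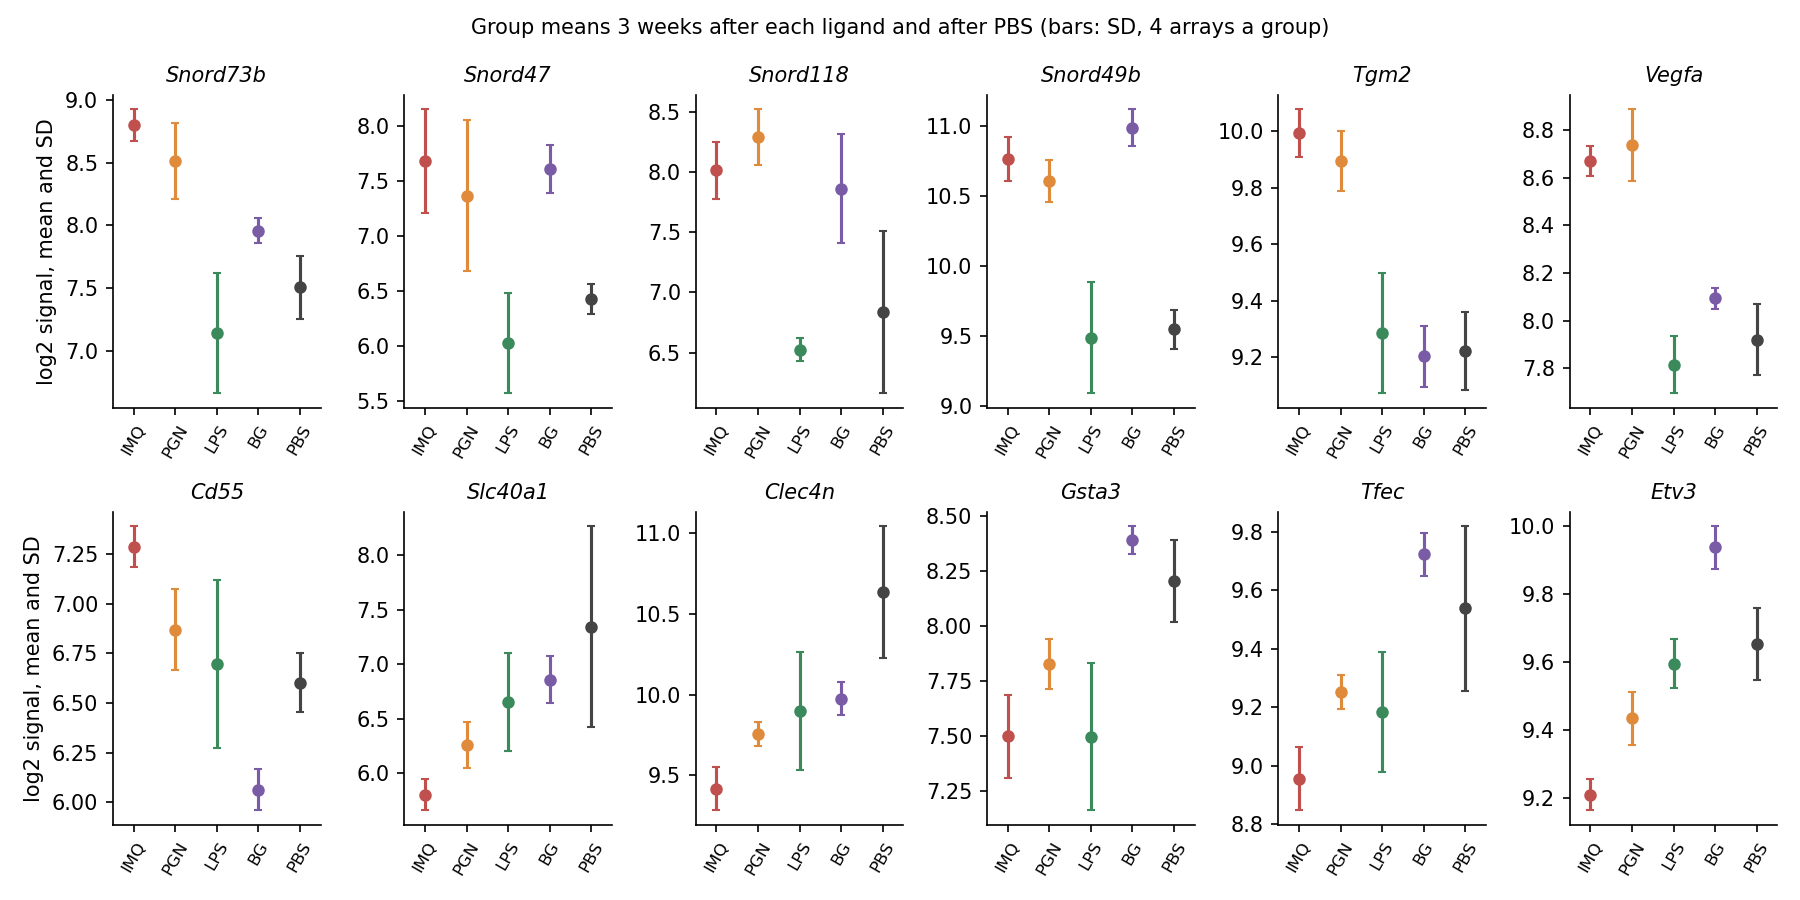
Mean log2 signal and SD (vertical axes, each with its own range) of 12 genes after IMQ, PGN, LPS, BG and PBS (horizontal axis, 4 arrays each). IMQ and PGN means lie close together for Tgm2, at 9.99 and 9.89, and for Snord49b, at 10.76 and 10.61. The BG mean of Gsta3, at 8.39, is above that of IMQ, at 7.50.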

How the data were processed

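RNA of peritoneal macrophages was measured on 28 arrays in 7 groups of 4, grouped by their titles. The deposited value is a linear intensity for each probe set on each array, which the authors obtained by RMA in Affymetrix Expression Console, per the submitters' processing notes. Raw scans were not analysed here. No software version or genome build is given in the sources used. Each array had a median signal between 107 and 115.

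From these values log2 was taken, with no further normalisation. Of 35556 probe sets, 21789 have 1 gene symbol in the platform table, 1621 several and 12146 none. Symbols were matched to RefSeq by Entrez identifier for 21698 probe sets. Background was set from 1210 probe sets of odorant and vomeronasal receptors: the floor is the 95th percentile of their means, a log2 signal of 6.32 (80.04 linear). Probe sets above it in at least 4 arrays were kept, and the brightest was used for each gene, leaving 13512. Among 740 genes with several probe sets, Slc25a36 had opposite calls. For a gene at the floor in every array of a group, the fold is a bound against the floor.

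limma 3.58.1 in R 4.3.3 fitted 1 mean per group to all 28 arrays with an intensity trend, so the SE of a gene is pooled over groups. P-values were adjusted by Benjamini-Hochberg over all genes, and a gene was called where this value was under 0.05. The script was tested on simulated data. Replicate numbers did not pair the samples: deviations of same-numbered IMQ and PBS arrays correlated at 0.049, -0.243, -0.089 and 0.068. The number of arrays limits the precision, and where arrays do not come from separate animals p-values measure the spread between arrays alone.

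Named genes were the 12 largest rises and falls without overlap, up to 4 members of each of 34 lists by p, a fixed set around TLR7, and up to 4 genes each way in the direct comparisons. The comparison, members and lists were chosen with earlier results of these data known. Alternatives are given in the closing section. Sequences and the intervals used for small nucleolar RNAs are from RefSeq (GRCm38.p6). Figures were drawn with matplotlib 3.10.9.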

Additional observations from a re-analysis of the deposited data

Results flagged for a closer look

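Direct tests between ligands gave several differences that named genes rest on. After IMQ compared with LPS, the log2 difference was 1.66 for Snord73b, 1.66 for Snord47, 1.49 for Snord118 and 1.28 for Snord49b. After IMQ compared with BG it was 1.22 for Cd55, 1.01 for Snora16a, 0.99 for Bank1, -0.89 for Gsta3, -0.77 for Tfec and -0.73 for Etv3. Slc40a1, at the background floor in every IMQ array, was at least 1.25-fold lower after IMQ than after LPS and at least 1.45-fold lower than after BG. All of these passed the limma test of the difference itself, but the rule for naming genes from these comparisons required that. The passing is therefore no further support.

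In 7 cases a single array of a group of 4 lay far from the other arrays by Dixon's criterion at 95%, which chance meets in about 1 group in 20. They were IMQ array 4 for Cox6c (12.02) and Ndufv2 (10.95), IMQ array 2 for Ikbke (9.81) and Myd88 (10.44), IMQ array 1 for Mfge8 (8.41) and Rpl5 (11.50), and PBS array 4 for Snord49b (9.75). The 98 genes named were looked at in both groups.

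Probe sets without a gene in the platform table were not part of the comparisons above. Of 6954 tested, 564 (8.11%) were called in IMQ against PBS, 266 higher and 298 lower, a share above the 5.69% of genes. The lowest adjusted p was that of Affymetrix probe set 10338001, with log2 signals of 10.81, 10.92, 10.91 and 11.02 after IMQ, against 11.53, 11.57, 11.42 and 11.49 after PBS (difference -0.59, adjusted p = 2.63e-08). PGN arrays lay at 10.81 to 10.89 for this probe set. The arrays of LPS, BG, wild type with no injection named and knockout lay between 11.29 and 11.60, so the IMQ and PGN arrays sit apart together. The same held for 4 of the 5 probe sets with the lowest adjusted p, with IMQ lower than PBS by 0.502 to 0.603 on the log2 scale. This bears on the comparison of IMQ with PGN, in which 0 genes were called. It bears as well on those with PBS, LPS and BG, whose arrays all lay above the IMQ arrays for these probe sets. Probe set 10598089 split the groups in another way: it averaged 9.89 after IMQ, 10.10 after PGN and 10.05 after BG, against 10.99 after LPS and 11.13 after PBS. No array batch or scan date is given in the sources used here, and the part of such a batch in the IMQ and PGN results was not tested.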

How the results depend on the processing

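Of 79 called genes named, 49 kept direction and call in all 20 settings other than leaving out a pair of PBS arrays, and none of the 79 reversed. Leaving out single arrays gave 400 to 758 calls for IMQ against PBS, 1195 to 2824 for LPS, 3962 to 4595 for BG and 0 to 0 for PGN. Array weights raised the calls against PBS to 1699 and against PGN to 113. The B cell marker covariate lowered them to 505 against PBS, 1716 against LPS and 2348 against BG. Without PBS arrays 3 and 4, an alternative chosen after seeing the data, 310 genes were called against PBS and 45 of the 79 named lost the call, 16 of them with a difference smaller by over 1.5 times. Without PBS arrays 1 and 2 there were 1135 calls. Centring on the median gave 394 higher and 614 lower against PBS (39.1% higher, against 54.4%), 927 and 1969 against LPS, and normalising the quantiles again gave 470 and 575 (45% higher) against PBS and 1178 and 1099 against LPS. Without a filter 1722 were higher and 1648 lower against LPS. With the replicate block 765 genes were called against PBS, 716 of them shared with the same direction. No IMQ array correlated best with the PBS array of its own number except array 4. Genes near 0 that were not called changed sign: Atf7 was -0.026 with the mean of its probe sets, and Gata6 was -0.094 and Tnf -0.043 without PBS arrays 3 and 4. Unc93b1 was -0.040 without them, -0.0096 centred, -0.0179 with quantiles normalised again, -0.00229 with the covariate and between -0.00946 and 0.0271 with single arrays left out. The causes were not tested.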
